A study of Mus musculus with 15 samples.

Results

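The genes described here are the Golgi glycosyltransferases of 5 mouse myeloma cell lines: Abo, Ggta1 and every entry of the deposited table whose name belongs to the B3GALT, B4GALT, B3GNT, ST3GAL, ST6GAL, ST8SIA, FUT, GALNT, MGAT or GCNT families. They were chosen by name, and 88 of the 32434 entries matched. The theme was proposed with the differences between the lines already known, and Abo and Ggta1 were named singly in it, so the levels of Abo and Ggta1 are given as a description without a test. The family names took in every member whatever its level, and 1 match, St8sia3os, is a long non-coding RNA of the St8sia3 locus and not an enzyme.

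The lines, IL6Myc-1 to IL6Myc-5, are myeloma lines from IL6Myc mice, which develop a malignancy of plasma cells. All 5 carry that genotype, and the labels state no treatment, no time point, no age of the mice and no promoter of a transgene. There were 3 technical replicate libraries of total RNA per line, 15 in all, with 19068543 to 41165599 estimated counts each. Untransformed plasma cells were not analysed here, each line is a single biological unit, and all p-values measure the spread between technical replicates only.

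Glycosyltransferases of the Golgi add sugars, one at a time, to the glycans of secreted and surface glycoproteins and of glycolipids as these pass through the secretory pathway. On N-glycans the MGAT enzymes start and branch the antennae with N-acetylglucosamine, B4GALT enzymes add galactose, and sialyltransferases and fucosyltransferases cap or decorate the chains. GALNT enzymes start mucin-type O-glycans with N-acetylgalactosamine. Plasma cells pass their immunoglobulin through this series of enzymes. Sialic acid on antibodies, core fucose, blood group structures and the alpha-Gal epitope are among the products.

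Levels are CPM, a library's counts rescaled to a common total, on library sizes adjusted by TMM. CPM is not divided by transcript length, so levels are compared between lines and not between genes. A gene was tested if it had at least 1 CPM in at least 3 libraries. It was called as differing among the lines when edgeR's quasi-likelihood F-test gave an adjusted p under 0.05 together with a fitted log2 range of at least 1 between the highest and the lowest line. A line was called higher or lower when its contrast with the mean of the 4 others had an adjusted p under 0.05 and a log2 size of at least 1.

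The labelled cell type was checked with plasma cell markers. Sdc1, Xbp1, Irf4, Prdm1, Jchain, Mzb1, Tnfrsf17, Igha and Igkc all exceeded 1 CPM in each line, with a summed level of 45401 to 112921 CPM per library. Among markers of other cells, summed levels per library were 78.9 to 583 CPM for the myeloid list, 1.97 to 29.0 CPM for the T and NK cell list, 14.3 to 27.2 CPM for the endothelial and stromal list and 136 to 468 CPM for the epithelial list. Of these lists, Lyz2, Cd14, Cd3e, Gzmb, Cdh5, Kdr, Cxcl12 and Cdh1 stayed at 0.138 CPM or less as a line mean. Other members went the other way. As line means, Itgam and Cd3d reached 11.6 and 7.60 CPM in IL6Myc-2, and Krt18 reached 17.4 CPM in IL6Myc-5. In IL6Myc-4, C1qc, Cd4 and Krt8 reached 65.8, 2.92 and 1.56 CPM. C1qb, Cd3g, Pecam1 and Epcam were the largest contributors to the summed levels in each line. Depending on the line, 3 of 8 myeloid, 1 to 3 of 8 T and NK cell, 1 of 8 endothelial and stromal and 1 to 3 of 5 epithelial markers exceeded 1 CPM. In bulk RNA, fewer cells expressing a gene and less of its RNA per cell cannot be told apart.

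Of the 88 entries, 38 passed the filter and 50 did not. Among the 38, 22 were called among the 5 lines, where 32.1% of all 11773 tested genes were called. The median log2 range of the 38 was 1.13, against 0.70 over all tested genes. Since the theme was proposed with these differences in view, and since Abo and St6gal2 each passed the filter through 1 line alone, nothing is read from that count. Likewise, St3gal3, St3gal5, St6galnac2 and Fut2 passed it only through the lines where they were highest. Roles were assigned by family name alone. By role, 8 of 10 tested sialyltransferases, 6 of 6 fucosyltransferases and 3 of 7 galactosyltransferases were called. Of the GALNT enzymes 4 of 6 were called, and of the N-acetylglucosaminyltransferases 0 of 7. These counts stand beside the same 32.1% of all tested genes, and nothing is read from them. At an adjusted p under 0.05 of any size, 15 of the 16 genes not called also passed the F-test, B3gntl1 being the exception. The share of all tested genes that passed at any size was not counted, so nothing is read from this number either.

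**Figure D1:**
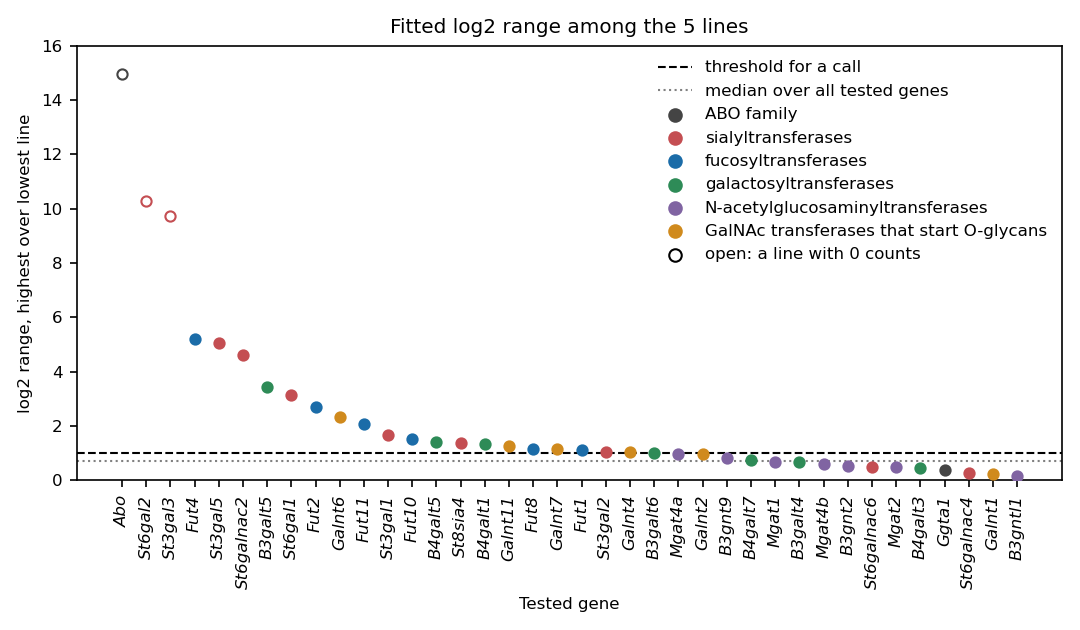
Fitted log2 range between the highest and the lowest line (vertical axis) for each of the 38 tested genes, coloured by role. The dashed line marks the threshold of 1 and the dotted line the median of 0.70 over all tested genes. Open circles have a line with 0 counts, so that their height depends on the prior count of the fit.

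RefSeq start regions, 250 bases before to 50 bases after an annotated start, were matched by symbol for 64 of the 88 entries and 27 of the 38 tested genes. Abo, St3gal1, Fut10, St3gal2 and Galnt4 were among those with no match. Below are the regions of 3 genes with a single listed start, shown because they stand at both ends of the range among the lines: Ggta1, close to level in all 5 lines, Fut4, with the widest range among genes counted in every line, and St6gal2, found almost wholly in 1 line. They are given 5′ to 3′ on the gene's strand, with capitals marking GGGCGG on either strand, the letters bound by Sp1-type factors, which the Fut4 region does not hold.
Ggta1, chr2:35461400-35461699 (GRCm38.p6, minus strand): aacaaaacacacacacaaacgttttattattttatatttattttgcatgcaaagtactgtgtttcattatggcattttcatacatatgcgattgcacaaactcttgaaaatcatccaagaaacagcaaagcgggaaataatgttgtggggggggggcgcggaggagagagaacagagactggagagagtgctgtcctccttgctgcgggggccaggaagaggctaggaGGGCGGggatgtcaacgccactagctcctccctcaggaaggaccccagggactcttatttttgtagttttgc
Fut4, chr9:14752073-14752372 (GRCm38.p6, minus strand): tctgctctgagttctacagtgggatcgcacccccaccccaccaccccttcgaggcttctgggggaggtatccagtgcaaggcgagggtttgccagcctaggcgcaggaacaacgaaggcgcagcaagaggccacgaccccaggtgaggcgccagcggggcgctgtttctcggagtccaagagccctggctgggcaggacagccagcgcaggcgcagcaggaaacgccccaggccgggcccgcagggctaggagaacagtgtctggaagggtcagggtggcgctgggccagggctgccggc
St6gal2, chr17:55445132-55445431 (GRCm38.p6, plus strand): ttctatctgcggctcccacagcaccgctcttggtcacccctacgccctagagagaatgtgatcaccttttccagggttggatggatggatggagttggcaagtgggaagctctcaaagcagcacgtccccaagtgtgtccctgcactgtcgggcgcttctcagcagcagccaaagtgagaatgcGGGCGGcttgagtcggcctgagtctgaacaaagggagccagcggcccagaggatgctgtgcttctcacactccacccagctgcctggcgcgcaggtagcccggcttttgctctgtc
The Ggta1 region holds 46.7% G and C with 8 CG dinucleotides, the Fut4 region 68.0% with 18, and the St6gal2 region 59.7% with 13. The first-listed start was used for genes with several. On either strand, GGGCGG lay in 81.5% of the 27 regions of tested glycosyltransferases, in 64.1% of the regions of all 9334 tested genes with one and in 35.9% of all 27025 regions. CACGTG, the letters of the E-box bound by Myc, lay in 3.70% of the 27, 10.6% of the 9334 and 7.24% of the 27025. TTCNNNGAA, the letters bound by STAT factors, lay in 11.1%, 6.81% and 8.47% of the same 3 sets, and CCAAT in 37.0%, 40.2% and 37.9%. Neither CACGTG, TTCNNNGAA nor CCAAT lay in the 3 regions printed. TTCNNNGAA lay in the regions of B3galt5, B4galt1 and Mgat2, and CACGTG in that of B3gntl1. These matches are letters in a window and describe no binding.

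The ABO family held the widest contrast among the lines. Abo encodes the glycosyltransferase that completes the A and B blood group antigens, and the mouse enzyme has been described as making both. In IL6Myc-1 it was at 153, 157 and 154 CPM in the 3 libraries. Of the other 12 libraries, 1 of IL6Myc-2 held a single count (0.0477 CPM) and 11 held 0 counts. The libraries of IL6Myc-1 were thus apart from all others, with a mean of 155 ± 2.39 CPM (SD, n = 3). Against a floor of 3 counts over the 3 libraries of a line, this level was at least 4237-fold higher than in IL6Myc-3, at least 4114-fold higher than in IL6Myc-4 and at least 3622-fold higher than in IL6Myc-5. Against the single count of IL6Myc-2 the ratio was 8795, with an exact 95% interval of 1578 to 347401 that covers counting error only.

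The genes next to Abo on chromosome 2 differed far less among the lines. Surf6, a nucleolar protein gene and the next tested gene on one side, was at 48.4 ± 2.25 CPM in IL6Myc-1 and 27.5 to 31.3 CPM in the 4 other lines, so that it too was highest in IL6Myc-1, and it was not called. On the other side the nearest tested gene was Agpat2, an acyltransferase of lipid synthesis, with 11 genes of the table between them. Agpat2 was at 1.42 ± 0.256 CPM in IL6Myc-1, inside the 1.29 to 2.94 CPM of the other lines, and was called in the F-test. Summed markers of other cells in the libraries of IL6Myc-1 were 78.9 to 85.1 CPM for the myeloid list, 11.6 to 15.2 CPM for T and NK cells and 324 to 327 CPM for the epithelial list, in each case below the highest of the other lines. The endothelial and stromal sum was highest in IL6Myc-1, at 26.3 to 27.2 CPM against at most 25.7 CPM, with Pecam1 at 26.3 CPM and Cdh5 and Kdr at 0 counts in all 15 libraries. Their part in the Abo level was not tested.

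Ggta1, the alpha-1,3-galactosyltransferase that makes the alpha-Gal epitope, is related to Abo in sequence and lies on the same chromosome, yet was measured at nearly the same level throughout. Its libraries were at 279, 260.1 and 270.0 CPM in IL6Myc-1, at 249, 266 and 257 CPM in IL6Myc-2 and 299.8, 298 and 278 CPM in IL6Myc-3. They were at 276, 283 and 259 CPM in IL6Myc-4 and 321, 367 and 318 CPM in IL6Myc-5. The 3 libraries of IL6Myc-5 lay above the other 12, and the other 4 lines overlapped with their neighbours in the order of levels. The mean of the highest line was 1.30 times that of the lowest. The nearest tested genes, Glo1-ps and Dab2ip, spanned 11.8 to 21.9 and 34.6 to 60.1 CPM and were not called. Further relatives of Abo, Gbgt1 and A3galt2, stayed under the filter, with at most 0.0127 and 0.263 CPM as a line mean.

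The acceptor of the Abo enzyme is the H structure, made by the fucosyltransferases Fut1 and Fut2. Fut1 was at 82.8, 73.8 and 76.0 CPM in IL6Myc-2, all above the 12 other libraries. It was at 49.0, 47.3 and 50.5 CPM in IL6Myc-4 and 35.2, 35.8 and 39.7 CPM in IL6Myc-1. IL6Myc-3, at 39.4, 33.2 and 37.7 CPM, and IL6Myc-5, at 33.0, 38.9 and 35.0 CPM, overlapped with IL6Myc-1. Its log2 range was 1.13 (edgeR adjusted p of the F-test 6.07e-10), and its log2 difference in IL6Myc-2 was 0.99 ± 0.06 (SE), just under the threshold of 1. Leaving out replicate 2 or 3 of IL6Myc-2 or replicate 2 of IL6Myc-5 brought that difference to 1.03, 1.004 and 1.003, past the threshold. Fut2 was low throughout, at 1.60 ± 0.450 CPM in IL6Myc-2 and 1.45 ± 0.422 CPM in IL6Myc-4, and 0.237 to 0.384 CPM was measured in the remaining lines. It passed the filter through IL6Myc-2 and IL6Myc-4 alone, so its calls are a description without a test. IL6Myc-1, where Abo was counted, thus held 36.9 ± 2.46 CPM of Fut1 and 0.384 ± 0.199 CPM of Fut2, within the range of the lines without it.

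**Figure D2:**
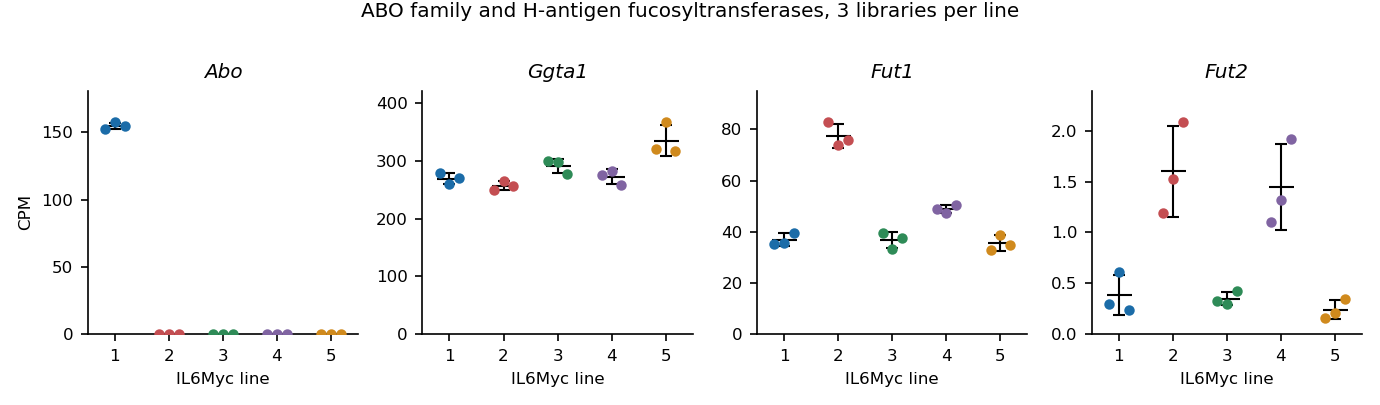
CPM (vertical axes, linear from 0, scaled per gene) of Abo, Ggta1, Fut1 and Fut2 in the 5 lines. Points are libraries, bars the mean ± SD of 3. Abo stands at 153 to 157 CPM in IL6Myc-1 and at or near 0 elsewhere, while Ggta1 lies between 249 and 367 CPM in all 15 libraries.

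Sialyltransferases that cap galactose differed among the lines in level and in which member was present. St6gal1 adds sialic acid in alpha-2,6 linkage to N-glycans, those of antibodies included, and makes the ligand of the B cell lectin CD22. It was at 148, 154 and 145 CPM in IL6Myc-5, at 102, 101 and 103 CPM in IL6Myc-2 and 96.5, 92.1 and 84.7 CPM in IL6Myc-4. It was at 28.8, 29.1 and 30.4 CPM in IL6Myc-3 and 15.8, 17.8 and 17.3 CPM in IL6Myc-1. No library of a line overlapped with those of the next line in this order. St6gal1 was called higher in IL6Myc-5 (log2 difference 1.69 ± 0.04, edgeR adjusted p = 1.28e-15) and lower in IL6Myc-3 (-1.24 ± 0.05, adjusted p = 1.32e-12) and in IL6Myc-1 (-2.24 ± 0.05, adjusted p = 9.33e-16). The highest line was 8.79 times the lowest. In IL6Myc-2 the log2 difference of St6gal1, 0.9996 ± 0.04, was just under the size threshold. The nearest tested genes on chromosome 16 were Rfc4 and Bcl6, with 5 and 9 annotated genes between them and St6gal1. Rfc4, a DNA replication gene, spanned 67.3 to 96.4 CPM and was not called. Bcl6, a transcriptional repressor of germinal centre B cells, was called, at 10.4 ± 0.581 CPM in IL6Myc-5 and 4.06 to 7.71 CPM elsewhere.

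St6gal2, the second enzyme of this linkage, was counted almost wholly in IL6Myc-3, one of the lines with less St6gal1. Its 3 libraries there were at 5.30, 5.86 and 7.31 CPM, whereas the 12 other libraries reached at most 0.152 CPM and those of IL6Myc-2 held 0 counts. Over its 513 counts in IL6Myc-3, the level was at least 118-fold higher than the floor of 3 counts in IL6Myc-2, and 498 times that of IL6Myc-4, which held 1 count (exact 95% interval 88.99 to 19710). St6gal2 passed the filter through IL6Myc-3 alone, so it had to differ and its level there is a description without a test. The nearest tested genes on chromosome 17 were Sgo1, which protects centromeric cohesion, and Pot1b, a telomere protein gene. Between them and St6gal2 lay 27 and 2 annotated genes, so Sgo1 is not adjacent. Both were called in the F-test and highest in IL6Myc-1, at 56.8 ± 3.17 and 23.7 ± 1.82 CPM.

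The ST3GAL enzymes add sialic acid in alpha-2,3 linkage. St3gal1, which caps core 1 O-glycans, was at 22.1, 23.2 and 24.4 CPM in IL6Myc-1 and at 7.06, 7.82 and 7.11 CPM in IL6Myc-2, the highest and the lowest line. IL6Myc-3, at 15.6, 17.3 and 17.7 CPM, and IL6Myc-4, at 17.1, 17.4 and 18.4 CPM, overlapped, and IL6Myc-5 was at 8.35, 9.55 and 9.36 CPM. It was called lower in IL6Myc-2 (log2 difference -1.11 ± 0.07, edgeR adjusted p = 7.54e-10), while its difference of 0.97 ± 0.06 in IL6Myc-1 was under the size threshold. The difference in IL6Myc-2 also passed under it on log2(CPM + 5), at -0.77. Among its neighbours on chromosome 15, Zfat was not called, and Ndrg1, a stress-responsive gene, was at 8.41 ± 0.440 CPM in IL6Myc-1 and at 0.581 ± 0.243 CPM in IL6Myc-2. Ndrg1 was at 5.20 CPM in IL6Myc-3 and 5.85 CPM in IL6Myc-5, and lowest in IL6Myc-4, at 0.263 CPM. Its order of lines thus differed from that of St3gal1.

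St3gal2, which also caps core 1 and gangliosides, was at 13.8, 13.2 and 12.05 CPM in IL6Myc-3, above the 12 other libraries, and at 10.2, 10.1 and 8.53 CPM in IL6Myc-5. It was at 7.68, 7.87 and 8.33 CPM in IL6Myc-2, 6.69, 6.80 and 7.58 CPM in IL6Myc-1 and at 6.57, 6.07 and 6.22 CPM in IL6Myc-4. Its log2 range of 1.05 was called, with no single line past the size threshold. St3gal3 was counted mainly in 2 lines, at 3.53, 4.32 and 4.66 CPM in IL6Myc-2 and 2.40, 2.78 and 2.01 CPM in IL6Myc-3. It had 0 counts in IL6Myc-1, at least 124-fold lower than in IL6Myc-2, and at most 0.155 CPM in any library of IL6Myc-4 and IL6Myc-5. St3gal5, the GM3 synthase that opens ganglioside synthesis, was likewise highest in IL6Myc-3 at 3.46 ± 0.430 CPM and next in IL6Myc-2 at 1.87 ± 0.421 CPM. It was lowest in IL6Myc-4, at 0.1002 ± 0.0969 CPM. St3gal3 and St3gal5 passed the filter through IL6Myc-2 and IL6Myc-3 alone, so their calls are descriptions without a test. St3gal4 and St3gal6 stayed under the filter, with 87 and 21 counts in all libraries together.

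On O-glycans, St6galnac2 was called higher in IL6Myc-5, at 2.82, 3.45 and 5.76 CPM, and in IL6Myc-4, at 2.71, 1.08 and 1.07 CPM. It was called lower in IL6Myc-2 and IL6Myc-1, at 0.163 and 0.196 CPM. In IL6Myc-4 the first library stood well above the other 2. St6galnac2 passed the filter through IL6Myc-4 and IL6Myc-5 alone, so its calls are descriptions without a test. St6galnac4 and St6galnac6 were not called, at 66.3 to 79.1 and 15.3 to 21.6 CPM. Of the ST8SIA enzymes, which link sialic acid to sialic acid, the polysialyltransferase gene St8sia4 alone was tested. It was at 103, 109 and 100.2 CPM in IL6Myc-4, 97.3, 88.6 and 91.4 CPM in IL6Myc-1 and at 86.6, 85.1 and 88.1 CPM in IL6Myc-3. It was at 45.1, 45.1 and 46.1 CPM in IL6Myc-2 and 39.1, 42.5 and 40.0 CPM in IL6Myc-5, so that the lines fell into a higher and a lower set with no overlap (edgeR adjusted p of the F-test 1.19e-13). No single line passed the size threshold.

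**Figure D3:**
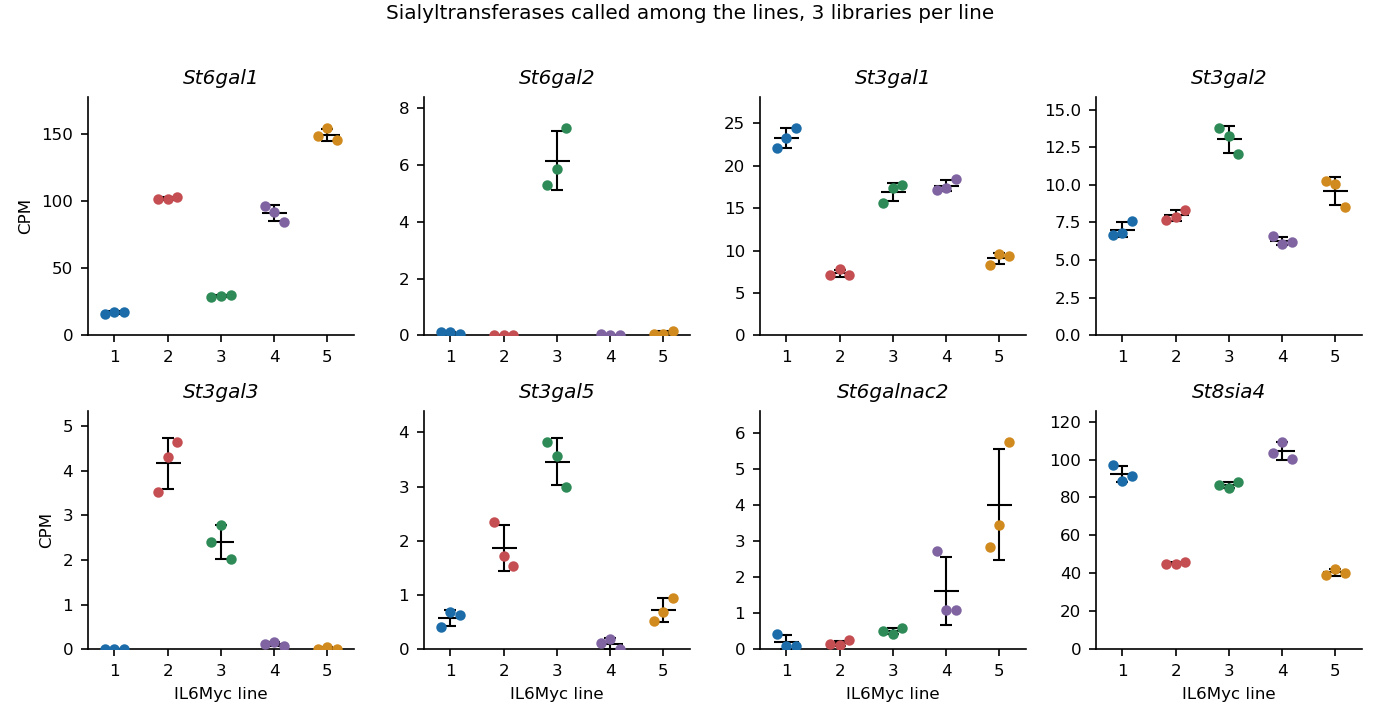
CPM (vertical axes, linear from 0, scaled per gene) of the 8 called sialyltransferases in the 5 lines. Points are libraries, bars the mean ± SD of 3. St6gal1 is highest in IL6Myc-5 and lowest in IL6Myc-1, and St6gal2 is counted almost wholly in IL6Myc-3.

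Of the genes that supply sialic acid, Gne, the enzyme that starts sialic acid synthesis, spanned 158 to 221 CPM, Cmas, which activates it to the CMP form, 53.6 to 67.6 CPM, and the Golgi transporter Slc35a1 14.9 to 20.4 CPM. Cmah, which turns the activated sugar into its glycolyl form in mice, spanned 115 to 179 CPM. None of these 4 genes was called.

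All 6 tested fucosyltransferases were called among the lines, where 32.1% of all tested genes were called. Fut4 adds fucose to inner or terminal N-acetyllactosamine, forming Lewis x (CD15). It was at 11.3, 11.2 and 10.04 CPM in IL6Myc-5, at 8.03, 9.82 and 9.38 CPM in IL6Myc-3 and 4.34, 4.72 and 4.17 CPM in IL6Myc-2. It was at 0.964, 0.425 and 0.576 CPM in IL6Myc-4 and 0.254, 0.267 and 0.384 CPM in IL6Myc-1. The 5 lines did not overlap, and the highest was 35.9 times the lowest. IL6Myc-5, IL6Myc-3 and IL6Myc-2 were called higher, IL6Myc-4 and IL6Myc-1 lower, the largest difference being that of IL6Myc-1 (log2 difference -3.81 ± 0.22, edgeR adjusted p = 1.52e-10). On log2(CPM + 5), which shrinks low genes, that difference was -0.98, under the size threshold. Its neighbours on chromosome 9 were Ankrd49, not called, and Piwil4, called and lowest in IL6Myc-1 at 6.32 ± 0.414 CPM against 11.1 to 29.8 CPM. Fut7 and Fut9, which also make Lewis-type structures, held 6 and 2 counts in all.

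Fut8, the core fucosyltransferase of N-glycans, whose product on IgG lowers binding to activating Fc receptors, was at 197, 193 and 198 CPM in IL6Myc-4 and 85.1, 92.4 and 87.3 CPM in IL6Myc-1. IL6Myc-2, at 172, 169.9 and 168 CPM, and IL6Myc-5, at 164, 170.0 and 156 CPM, overlapped, and IL6Myc-3 was at 109, 107 and 107 CPM. The range of 2.22-fold was called (edgeR adjusted p of the F-test 2.84e-13), and no single line passed the size threshold. Fut10 was called lower in IL6Myc-1 (log2 difference -1.19 ± 0.16, edgeR adjusted p = 4e-06), at 2.35, 2.22 and 2.83 CPM, which overlapped with IL6Myc-2 at 3.20, 2.49 and 4.84 CPM. It was at 5.30, 6.12 and 6.01 CPM in IL6Myc-3, 6.43, 7.54 and 6.79 CPM in IL6Myc-4 and 7.64, 7.38 and 6.25 CPM in IL6Myc-5, where IL6Myc-4 and IL6Myc-5 overlapped and IL6Myc-3 lay below both. The difference in IL6Myc-1 passed under the size threshold with limma on log2(CPM + 1), at -0.94, on log2(CPM + 5), at -0.52, and without TMM, at -0.88. Fut11 was called higher in IL6Myc-2, at 3.10 ± 0.380 CPM, and lower in IL6Myc-1, at 0.731 ± 0.151 CPM, which overlapped with IL6Myc-3 at 0.829 CPM and with IL6Myc-5 at 1.14 CPM. IL6Myc-1 thus had the lowest mean of Fut4, Fut8, Fut10 and Fut11. The means of Fut1 and Fut2 were instead lowest in IL6Myc-5, at 35.6 and 0.237 CPM, against 36.9 and 0.384 CPM in IL6Myc-1.

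Galactosyltransferases were called in 3 of 7 tested cases, beside 32.1% of all tested genes. B3galt5 adds beta-1,3-linked galactose and in humans makes the type 1 chains that carry Lewis a. It was at 28.8, 28.4 and 31.7 CPM in IL6Myc-3 and 20.3, 22.3 and 20.8 CPM in IL6Myc-4. It was at 7.56, 10.8 and 8.15 CPM in IL6Myc-5, at 6.90, 6.80 and 5.38 CPM in IL6Myc-1 and at 2.39, 2.24 and 3.86 CPM in IL6Myc-2. The lines did not overlap, and the highest was 10.5 times the lowest. B3galt5 was called higher in IL6Myc-3 (log2 difference 1.97 ± 0.10, edgeR adjusted p = 7.3e-11) and IL6Myc-4 and lower in IL6Myc-2 (-2.30 ± 0.15, adjusted p = 9.11e-10). Its neighbours on chromosome 16, Sh3bgr and Igsf5, were highest in IL6Myc-2, at 2.88 ± 0.165 and 1.58 ± 0.279 CPM. In the other lines they averaged 0.127 to 0.528 and 0.196 to 0.534 CPM. Both passed the filter through IL6Myc-2, so they had to differ and their levels are a description without a test.

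B4galt1, the main enzyme that puts galactose on the antennae of N-glycans, was at 49.7, 46.5 and 46.7 CPM in IL6Myc-4, below the 12 other libraries, and at 76.2, 73.8 and 79.8 CPM in IL6Myc-2 and 100.4, 102 and 103 CPM in IL6Myc-3. IL6Myc-1, at 122, 118 and 118 CPM, and IL6Myc-5, at 121, 122 and 111 CPM, were highest and overlapped. IL6Myc-4 was called lower (log2 difference -1.10 ± 0.04, edgeR adjusted p = 2.7e-13), a call lost in limma without TMM, at -0.97. B4galt5, a lactosylceramide synthase, was at 47.9, 50.8 and 48.6 CPM in IL6Myc-1, above the 12 other libraries. It was at 35.7, 31.4 and 32.0 CPM in IL6Myc-4 and 27.3, 26.2 and 29.0 CPM in IL6Myc-3. IL6Myc-5, at 22.2, 17.6 and 21.7 CPM, and IL6Myc-2, at 17.8, 19.4 and 17.9 CPM, overlapped. IL6Myc-1 was called higher (log2 difference 1.02 ± 0.06, edgeR adjusted p = 1.32e-10). That difference stood near the size threshold and passed under it when replicate 2 of IL6Myc-1 or of IL6Myc-5 was left out, at 0.997 and 0.996, and with limma on log2(CPM + 1) and log2(CPM + 5), at 0.994 and 0.887. B4galt3, B3galt4 and the linker enzymes of proteoglycans B4galt7 and B3galt6 were not called, with log2 ranges of 0.45 to 0.998. B4galt4 held 2 counts in all.

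None of the 7 tested genes placed with the N-acetylglucosaminyltransferases by family name, B3gntl1 included, was called, beside 32.1% of all tested genes. Their median log2 range was 0.585, near the 0.70 over all tested genes. Mgat1, which starts the first antenna of complex N-glycans, spanned 199 to 318 CPM, and Mgat2, which starts the second, 84.1 to 116 CPM. Mgat4a, which adds a further branch, was at 221 ± 7.25 CPM in IL6Myc-2 and 112 ± 4.77 CPM in IL6Myc-1, a log2 range of 0.97, and Mgat4b spanned 14.7 to 22.0 CPM. B3gnt2, which extends poly-N-acetyllactosamine, spanned 28.2 to 41.03 CPM, with B3gnt9 and B3gntl1 under 10 CPM as line means. Mgat3, which adds the bisecting residue, and Mgat5, of the beta-1,6 branch, held 9 and 27 counts in all, with 22 of those of Mgat5 in IL6Myc-3. Of the GCNT enzymes, which branch O-glycans, none passed the filter, and Gcnt1, the core 2 enzyme of lymphocytes, held 0 counts in all 15 libraries.

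GALNT enzymes, which start O-glycans, were called in 4 of 6 tested cases, beside 32.1% of all tested genes. Galnt11 was at 21.9, 18.6 and 17.9 CPM in IL6Myc-1 and at 17.5, 16.4 and 17.5 CPM in IL6Myc-2. It was at 11.4, 9.01 and 11.3 CPM in IL6Myc-3, 11.5, 8.54 and 9.59 CPM in IL6Myc-5 and at 8.50, 8.04 and 7.68 CPM in IL6Myc-4. The libraries of IL6Myc-1 and IL6Myc-2 were thus above all others, with a log2 range of 1.28 (edgeR adjusted p of the F-test 5.8e-08). Galnt7, which prefers acceptors that already carry a sugar, was at 38.6, 44.7 and 35.3 CPM in IL6Myc-5 and at 16.5, 18.1 and 19.2 CPM in IL6Myc-2. The other lines lay between, at 30.5, 27.4 and 28.2 CPM in IL6Myc-3, 24.4, 27.7 and 26.7 CPM in IL6Myc-4 and 25.9, 25.2 and 24.05 CPM in IL6Myc-1. Its log2 range was 1.14 (edgeR adjusted p of the F-test 5.97e-08). Galnt4 was at 17.8, 17.7 and 17.6 CPM in IL6Myc-3 and 14.4, 13.6 and 13.2 CPM in IL6Myc-4, both above the other lines. It was at 10.2, 9.86 and 10.2 CPM in IL6Myc-1, at 8.63, 9.92 and 8.64 CPM in IL6Myc-5 and at 7.73, 9.04 and 9.31 CPM in IL6Myc-2, and IL6Myc-5 overlapped with both of the others. No single line passed the size threshold for Galnt11, Galnt7 or Galnt4. Galnt6 was called lower in IL6Myc-1, at 0.808, 0.917 and 0.240 CPM, and was at 1.94 to 3.51 CPM elsewhere. Galnt1 and Galnt2, the broadly acting members, spanned 67.1 to 79.0 and 77.8 to 153 CPM and were not called. The core 1 synthase C1galt1, which acts on the product of the GALNT enzymes, and its chaperone C1galt1c1 were not called either, at 94.2 to 137 and 29.7 to 55.4 CPM.

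**Figure D4:**
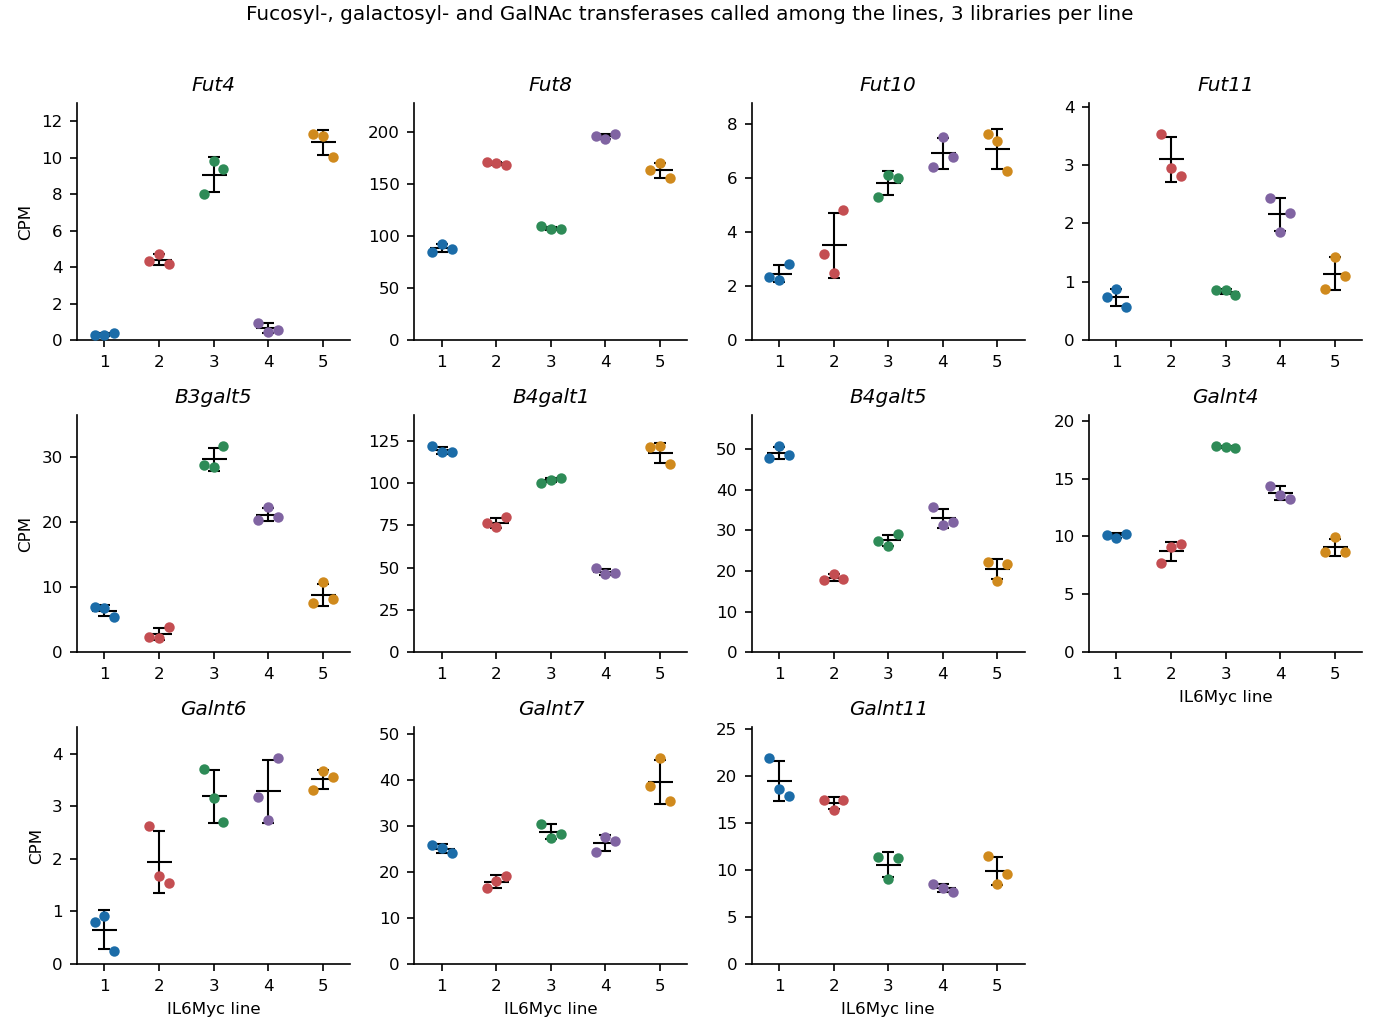
CPM (vertical axes, linear from 0, scaled per gene) of 11 called fucosyl-, galactosyl- and GALNT transferases in the 5 lines. Points are libraries, bars the mean ± SD of 3. Fut4, Fut8 and Fut10 are lowest in IL6Myc-1, B3galt5 is highest in IL6Myc-3, and B4galt1 is lowest in IL6Myc-4.

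Set by line, IL6Myc-1 had 2 glycosyltransferases past both thresholds above the mean of the other 4 lines (Abo and B4galt5), where 4.39% of all tested genes were called in that direction. Abo in IL6Myc-1 and St6gal2 in IL6Myc-3 passed the filter through those lines alone, so their places in these counts are descriptions from which nothing is read. The same holds for St3gal3 and St3gal5, which passed through IL6Myc-2 and IL6Myc-3 alone. It also holds for Fut2, through IL6Myc-2 and IL6Myc-4, and St6galnac2, through IL6Myc-4 and IL6Myc-5. IL6Myc-1 had 7 called lower (St3gal3, Fut4, St6galnac2, St6gal1, Galnt6, Fut11 and Fut10), where 8.11% of all tested genes were called. For St3gal3 that place rests on the levels in IL6Myc-2 and IL6Myc-3. IL6Myc-1 held 0 counts of St3gal3, and IL6Myc-4 and IL6Myc-5 averaged only 0.113 and 0.0177 CPM. IL6Myc-2 had 5 higher (St3gal3, Fut4, St3gal5, Fut2 and Fut11), where the share over all genes was 8.6%, and 4 lower (St6gal2, St6galnac2, B3galt5 and St3gal1), where it was 4.08%. For St6gal2 that place rests on the level in IL6Myc-3, since IL6Myc-2 held 0 counts and IL6Myc-1, IL6Myc-4 and IL6Myc-5 averaged only 0.0927, 0.0119 and 0.0815 CPM. IL6Myc-3 had 5 higher (St6gal2, St3gal3, Fut4, St3gal5 and B3galt5), with 4.6% over all genes, and 1 lower, St6gal1, with 3.05%. IL6Myc-4 had 3 higher (St6galnac2, B3galt5 and Fut2), with 5.28%, and 3 lower (Fut4, St3gal5 and B4galt1), with 4.37%. IL6Myc-5 had 3 higher (Fut4, St6galnac2 and St6gal1), with 4.8%, and 1 lower, Fut2, with 3.19%. The 5 contrasts share libraries, and the median log2 difference over the 38 genes lay between -0.22 in IL6Myc-1 and 0.24 in IL6Myc-4, with that over all tested genes between -0.01 and 0.01.

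**Figure D5:**
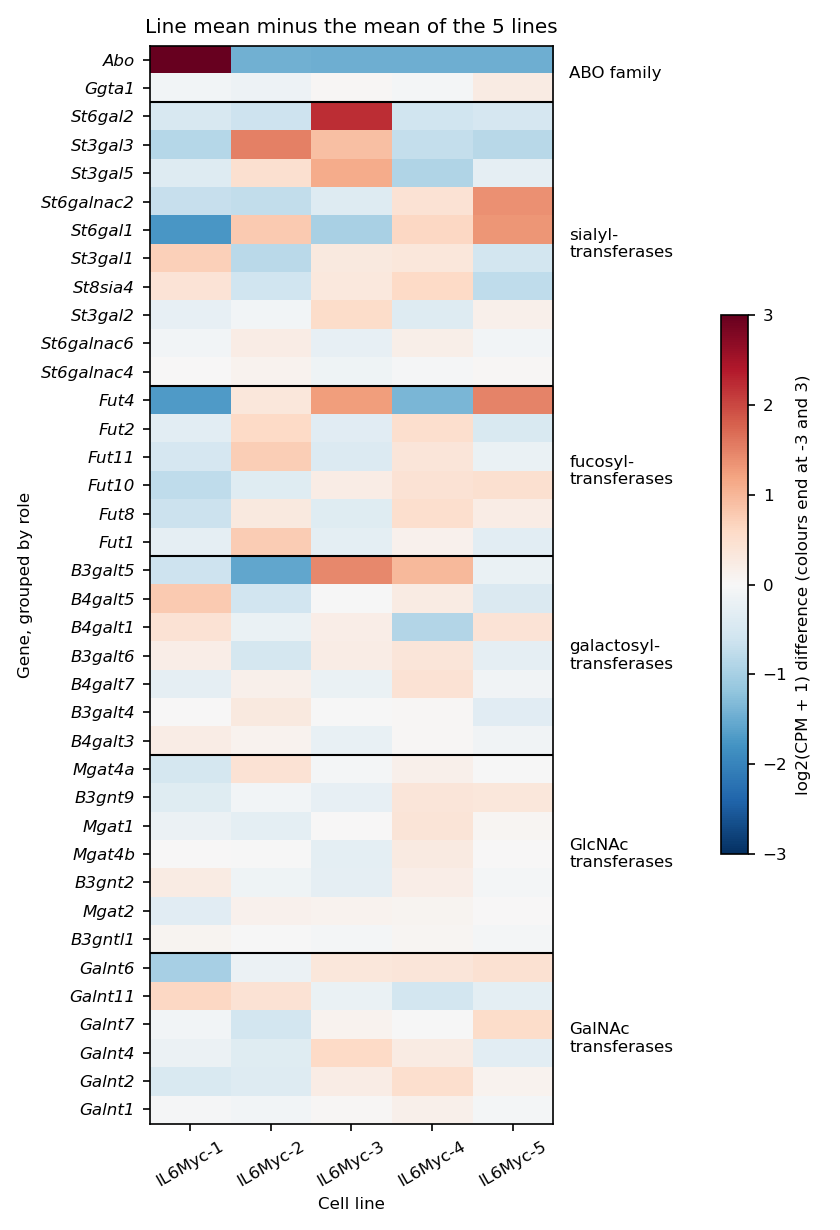
Line mean minus the mean of the 5 lines on the log2(CPM + 1) scale for the 38 tested genes, grouped by role, with colours ending at -3 and 3. Strong colours sit in the sialyl- and fucosyltransferase blocks and at Abo and B3galt5, and the GlcNAc transferase block is pale.

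The 50 entries under the filter reached at most 1.11 CPM in any library. Of these, 10 held 0 counts in all libraries (B3galt2, Galnt3, Galnt9, Galnt15, Galnt18, Gcnt1, Gcnt7, St6galnac3, St6galnac5 and St8sia5), 20 held fewer than 10 counts in all, 11 held 10 to 50 and 9 held more. A count of 0 over a line allows a level of 0.0332 CPM in IL6Myc-1, the most deeply counted line, and of 0.0527 CPM in IL6Myc-2, for counting error only, and a transcript with 0 counts may still be present. Some low members, not tested, had most of their counts in 1 line: Galnt12 held 24 of 36 in IL6Myc-2, Galnt5 38 of 49 in IL6Myc-3 and B3gnt6 57 of 92 in IL6Myc-4. The 9 with more than 50 counts were B4galt2, B3gnt4, Gcnt3, Galnt16, B4galt6, St3gal4, B3gnt6, B3galt9 and St8sia1.

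The 88 entries lay on all autosomes, with 12 on chromosome 2, and 1 (B3galt9) was not matched in the gene table. In the annotation of GRCm38, 25 of 37 matched tested genes overlapped another annotated gene, among them St6gal1 (opposite-strand BC106179), Fut8 (opposite-strand 9530018F02Rik), Galnt6 (opposite-strand Galnt6os) and Galnt4 (same-strand Poc1b). The library kit keeps strand, but the strand setting of the counting is not given in the sources used here, so reads of such pairs cannot be told apart.

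Other genes of glycosylation were described from 6 lists with 169 genes, of which 138 were tested and 32 called among the lines. The share called over all tested genes was 32.1%, and the counts of each list stand beside that same share. Their median log2 range was 0.66. In the list of sugar donors, 6 of 28 tested genes were called, and in that of donor transporters 2 of 14, Slc35a5 and Slc35d2. Fpgt, of fucose salvage, was called higher in IL6Myc-1, at 34.7 ± 0.972 CPM against 13.4 to 23.2 CPM. Galk1, of galactose metabolism, was lowest in IL6Myc-1, at 47.2 ± 1.02 CPM, with no overlap with other lines. Renbp, an epimerase of N-acetylglucosamine, was called higher in IL6Myc-2, at 6.67 ± 0.986 CPM.

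Of the genes that assemble, transfer and trim N-glycans, 6 of 34 were called. Man1c1, a Golgi mannosidase, was called higher in IL6Myc-4, at 103 ± 0.365 CPM, and lower in IL6Myc-1, at 24.6 ± 1.08 CPM (log2 differences 1.37 ± 0.04 and -1.22 ± 0.04, edgeR adjusted p = 7.42e-15 and 3.62e-13). Tusc3, an oligosaccharyltransferase subunit, was at 25.8 ± 1.14 CPM in IL6Myc-1 and at 4.36 ± 0.573 CPM in IL6Myc-5. Manea, an endomannosidase, was called higher in IL6Myc-1, at 144 ± 6.42 CPM against 51.5 to 84.8 CPM, and Man2a2 was highest in IL6Myc-2, at 536 ± 14.0 CPM.

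Among Golgi transferases outside the family names, 8 of 25 tested genes were called. B4galnt1, the GM2 and GD2 synthase that follows St3gal5 in ganglioside synthesis, was at 24.9 ± 2.19 CPM in IL6Myc-4 and 0.143 ± 0.0599 CPM in IL6Myc-1, with 3.89 to 7.09 CPM in the other lines. IL6Myc-4, its highest line, was the lowest for St3gal5. Tpst2, a tyrosylprotein sulfotransferase, was also highest in IL6Myc-4, at 138 ± 2.98 CPM, and lowest in IL6Myc-1, at 23.0 ± 2.31 CPM. B3galnt1, the globoside synthase, was highest in IL6Myc-2, at 6.89 ± 1.20 CPM, as was B4galnt4, at 12.7 ± 3.20 CPM. Casd1, which O-acetylates sialic acid and reached under 5 CPM, was counted in IL6Myc-1 alone, with 417 counts at 4.60 ± 0.455 CPM and 0 counts in the 12 other libraries. It was chosen after its values were seen.

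Of the Golgi structure list 3 of 27 were called: Golph3l, a retention factor of Golgi enzymes, was at 215 ± 17.5 CPM in IL6Myc-5, with 43.7 to 61.7 CPM elsewhere (log2 difference 2.14 ± 0.04, edgeR adjusted p = 1.39e-16), Gpr89 was lowest in the same line, at 39.9 ± 5.23 CPM, and Golm1 was under 3 CPM. Of the sialidases and glycan-binding receptors 7 of 10 tested genes were called. Neu1, the lysosomal sialidase, was highest in IL6Myc-4, at 306 ± 8.17 CPM against 131 to 191 CPM, as were Selplg, the selectin ligand PSGL-1 whose binding needs sialyl Lewis x, at 376 ± 11.4 CPM, Lgals3bp, at 125 ± 11.5 CPM, and galectin-1, Lgals1, at 8.66 ± 0.260 CPM. Cd22, the receptor of alpha-2,6-linked sialic acid, stayed under the filter, at 0.0657 CPM or less as a line mean. In IL6Myc-4 the myeloid marker sum was 530 to 583 CPM per library, against 78.9 to 131 CPM in the other lines. There C1qb was at 490 CPM and C1qc at 65.8 CPM, and Itgam was at 2.97 CPM against 11.6 CPM in IL6Myc-2. The other members of the list were at or near 0 in IL6Myc-4. Lyz2, C1qa and Adgre1 held 0 counts, and Csf1r and Cd14 averaged 0.0129 and 0.0257 CPM. The part of any myeloid cells in these levels was not tested.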

How the data were processed

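Total RNA was sequenced from strand-specific libraries (TruSeq Stranded Total RNA), per the labels' protocols, in 3 technical replicates of each of 5 lines. The submitters' processing notes list Trim Galore 0.4.0, DESeq2 and the genome build GRCm39. No aligner, counter or strand setting of the counting is stated there or in the labels. Although the table's name says TPM, its values are estimated counts as the authors deposited them: columns sum to 19068543 to 41165599, and they were rounded to whole numbers. This replaces the unit its name gives.

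Counts were analysed in R 4.3.3 with edgeR 4.0.16 (quasi-likelihood fit, TMM, cell line as the only term). Of 32434 entries, 11773 reached 1 CPM in 3 or more libraries and were tested, with Benjamini-Hochberg adjustment over all of them. An F-test compared the 5 lines, and contrasts set a line against the mean of the remaining 4. Calls needed an adjusted p under 0.05 and a log2 size of 1. The fit was also run on simulated counts with the same spread for every gene, unlike these data, and nothing is read from that run. The members, lists and rules were chosen with earlier results of these data known. Values in every library are given for Abo, Ggta1 and called members with at least 5 CPM in the highest line; other lists give the 4 called genes with the widest range at that level, except 1 that is not reported here.

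No replicate pair held identical values, and all pairs differed beyond sampling noise (chi-square per degree of freedom 4.507 to 19.6). Alternatives were DESeq2 1.42.0 size factors and tests, limma 3.58.1 on log2(CPM + 1), log2(CPM + 5) and values scaled to library size without TMM, no filter, a filter of 5 CPM, a replicate block and leaving out each library. Intervals and floors cover counting error only. Promoter sequences came from RefSeq (GRCm38.p6), a build other than that of the counts, and were matched by symbol.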

Additional observations from a re-analysis of the deposited data

How the results depend on the processing

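The 22 glycosyltransferases called among the lines were the same 22 with DESeq2 size factors, with DESeq2 tests and with the replicate block, which also called 33 other glycosylation genes against 32. Same-numbered libraries deviated together in 1 of 30 pairs at a correlation over 0.1 (-0.084 to 0.110), and 5 of 15 libraries correlated best with their own number, so the numbers were not taken as pairs. Counts for single lines are small and moved with the scale. The shares over all genes for single lines were not counted in these settings, so nothing is read from the moves. DESeq2 tests called 2, 5 and 3 lower in IL6Myc-3, IL6Myc-4 and IL6Myc-5. On log2(CPM + 1), limma called 1 higher and 4 lower in IL6Myc-1, 1 higher in IL6Myc-2, 2 lower in IL6Myc-3, 1 higher in IL6Myc-4 and 2 lower in IL6Myc-5. Without TMM, those counts were 4 lower in IL6Myc-1, 1 higher in IL6Myc-2, 2 lower in IL6Myc-3, 1 higher in IL6Myc-4 and 2 lower in IL6Myc-5. On log2(CPM + 5), which shrinks low genes by construction, 11 of the 38 tested were called among the lines and 18 other glycosylation genes. Over all genes, 1594 of 11773 were called on that scale. There, 1 was higher and 1 lower in IL6Myc-1, 0 higher and 2 lower in IL6Myc-2, 2 higher and 2 lower in IL6Myc-3, 0 higher in IL6Myc-4 and 1 higher in IL6Myc-5. With no filter on low counts, 35 of 78 tested were called among the lines, where 5438 of all 21140 tested genes were called. Of the 78, 5, 9, 11 and 6 were higher in IL6Myc-1 to IL6Myc-4. A filter of 5 CPM tested fewer genes and called 3 lower in IL6Myc-1, 2, 3 and 1 higher in IL6Myc-2, IL6Myc-3 and IL6Myc-4, and 0 lower in IL6Myc-5.

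Leaving out single libraries gave 21 to 23 called among the lines, 0 to 2 higher in IL6Myc-1 and 1 to 2 lower in IL6Myc-3. With 1 library of IL6Myc-1 left out, Abo left the test by construction, as did St6gal2 with 1 of IL6Myc-3, since the filter needs 3 libraries. Over single genes, 372 alternative values stayed on their side of the threshold, 10 lost a call (B4galt5, Fut10, Fut4, St3gal1 and B4galt1), 3 gained one (Fut1) and none reversed. Those values cover only the genes given in every library, each in the line where its difference was largest. Calls in other lines or of other genes are outside them. IL6Myc-2 had 6 higher instead of 5 with DESeq2 size factors and with DESeq2 tests. Low counts limit the genes under 5 CPM, whose calls rest on few reads.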
